A study of Mus musculus with 6 samples.

Results

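Knockdown of Junb was compared with a control siRNA, gene by gene, in mouse embryonic fibroblasts that were being pushed toward a cardiac fate. The genes described here are all those that passed a filter on low counts, 13427 of the 24516 in the deposited table. The filter used all libraries alike and no fold change. The cells were the iMGT-MEF line, in which doxycycline (1 ug/mL) turns on Mef2c, Gata4 and Tbx5 and which carries an eGFP reporter named for Myh6. All groups share these inserts and the drug. The control group (siControl) received a control siRNA, the Junb group (siJunb) an siRNA against Junb, and a further group (siH1f0) an siRNA against the linker histone gene H1f0. Each siRNA was given on the day before induction, and each group held 2 libraries described as biological replicates, so 4 of the 6 libraries form this comparison. The siH1f0 libraries entered the same fit and share in its estimate of the spread, and without both of them 1094 genes were called in place of the 2209 given below. The sample labels place harvest at day 1 of induction, while the series description speaks of day 3 and of a sort for GFP-positive cells. All libraries come from 1 line. No source used here gives the siRNA sequences, and loss of Junb and any other effect of its siRNA cannot be told apart.

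The libraries held 48690447 to 85979630 counts, and the median tested gene had 1484 to 2682 counts per library. The siControl libraries differed widely from each other for a few RNAs. Mef2c stood at 353.6 CPM (counts scaled to a library of 1e+06 by the TMM method) in siControl 1 against 709 CPM in siControl 2 and 729 to 752 CPM in siJunb. Rn45s, the ribosomal precursor RNA, was at 18760 and 6287 CPM with siControl against 6685 and 5082 CPM with siJunb. The difference was not limited to such RNAs. Cytosolic ribosomal protein genes summed to 26138 and 23256 CPM with siControl against 24630 and 24943 CPM with siJunb. Counts cannot separate the induced copies of Mef2c from the cells' own gene. Of the 22 fibroblast identity genes listed, 15 passed the filter. Vim, Col1a1 and Col1a2 were abundant, at 2630 to 2897, 1300 to 1406 and 524 to 557 CPM over the siControl and siJunb libraries, whereas Thy1 and Lum did not pass the filter. Fewer cells expressing a gene and less RNA of it per cell cannot be told apart in such bulk samples.

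AP-1 is a family of dimeric transcription factors built from JUN, FOS, ATF and MAF proteins that bind a short shared DNA element. JunB, the product of Junb, pairs with FOS proteins and, depending on the gene and its partner, can raise or lower transcription. In fibroblasts AP-1 is known for linking growth factor, stress and cytokine signals to genes of the matrix, of inflammation and of the cell cycle, and it is held to keep fibroblast enhancers active.

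Junb was measured first in every library. It was at 39.1 and 35.7 CPM with siControl, 10.7 and 8.89 CPM with siJunb and 29.98 and 31.1 CPM with siH1f0. The siJunb libraries lay below all others, and the change from siControl was -1.93 ± 0.09 on the log2 scale (SE; edgeR quasi-likelihood test, Benjamini-Hochberg adjusted p = 1.60e-05). Junb (chromosome 8, 84976909 to 84978748 in GRCm38.p6) is protein-coding. Of 17 AP-1 family genes that passed the filter, 3 rose and 4 fell, with a median log2 change of -0.05, and Junb alone held in all 6 fits. Jund, which encodes the JunB relative JunD, fell by 0.46, and Atf3, a stress-induced ATF factor, fell by 0.21. Fosl2, Mafk and Maf rose by 0.23, 0.31 and 0.26. Jun and Fos, the founding members, differed by 0.05 and 0.26 and did not pass the test (adjusted p = 0.524 and 0.0909).

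Over all tested genes edgeR called 2209 (16.5%) at an adjusted p under 0.05, 1159 higher (8.63%) and 1050 lower (7.82%) in siJunb. The changes were mostly small. The median called gene differed 1.25-fold, 1104 called genes differed by less than that, and 111 rose (0.827%) and 254 fell (1.89%) by at least 1.5-fold. At 2-fold or more the counts were 38 and 80. The calls on highly expressed genes leaned upward, and those on scarce genes downward. Of 3 classes of equal size by mean CPM, the highest had 696 higher and 319 lower calls and the lowest 104 higher and 315 lower. With total counts in place of TMM scaling the split was 884 higher and 1369 lower. The libraries of both groups did not overlap for 58% of the tested genes. Without siJunb 1 or siJunb 2 the calls dropped to 371 and 352, without siH1f0 1 or 2 to 1103 and 1115, and without siControl 1 or 2 they rose to 4605 and 5521. In all 6 fits that each left out a library, 133 genes (0.991%) were called higher and 151 (1.12%) lower. The counts of list members below move with these totals, so the members that held their call in all 6 fits are also counted for the lists described.

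**Figure D1:**
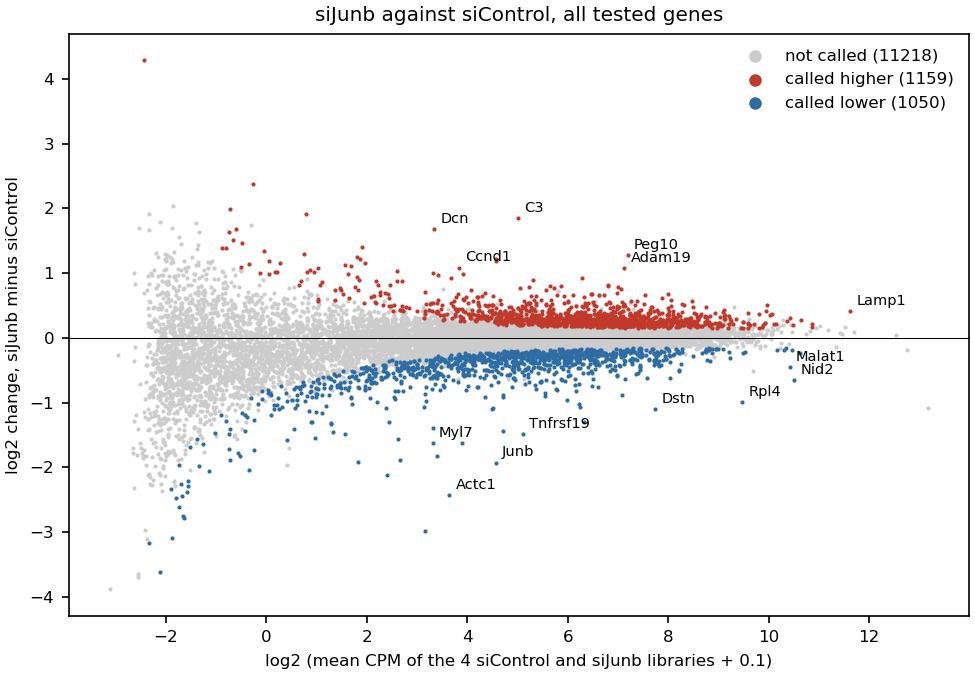
Each point is a tested gene, with log2 of its mean CPM over the 4 siControl and siJunb libraries on the x axis and its log2 change (siJunb minus siControl) on the y axis; red and blue points are the 1159 higher and 1050 lower calls of the edgeR test. Most calls lie within 1 log2 unit of 0, and Junb, Actc1, Myl7 and Tnfrsf19 lie well below it while C3 and Dcn lie well above.

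The genes that rose most spanned several functions as well as several levels of expression. C3, the central complement protein, was at 13.7 and 14.2 CPM with siControl, 50.8 and 49.4 CPM with siJunb and 13.3 and 11.3 CPM with siH1f0. Its siJunb libraries were the highest by a wide margin, and it rose by 1.85 ± 0.08 (log2, SE; adjusted p = 1.02e-05). Dcn, the gene of the small proteoglycan decorin, was at 5.21 and 4.27 CPM with siControl, 15.1 and 15.5 CPM with siJunb and 7.43 and 7.56 CPM with siH1f0. Both siJunb libraries lay above both siH1f0 libraries, which in turn lay above siControl. Peg10, an imprinted gene derived from a retrotransposon, was at 76.5 and 94.5 CPM with siControl against 209 and 205 CPM with siJunb, a rise of 1.28 ± 0.09.

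Adam19, a membrane-bound metalloprotease that sheds growth factors, was at 82.95 and 96.2 CPM with siControl against 192 and 187 CPM with siJunb, and rose by 1.08 ± 0.07 (adjusted p = 9.28e-05). Col8a1, a short-chain collagen of vessel walls, rose by 1.23, Lrp4, a receptor that binds Wnt antagonists and agrin, by 1.19, and Vcam1, which lets leukocytes adhere, by 0.99. Itga3, the laminin-binding integrin alpha-3 subunit, was at 76.3 and 85.5 CPM with siControl against 146 and 140.0 CPM with siJunb and rose by 0.82. Clu, the secreted chaperone clusterin, rose by 0.88, and Naip2, an intracellular sensor of bacterial proteins, by 1.03. Regulators were also among them. Ccnd1, cyclin D1, was at 9.61 and 8.46 CPM with siControl against 19.1 and 19.4 CPM with siJunb. Hmga2, an architectural chromatin protein of embryonic cells, rose by 0.89, Nr4a3, an orphan nuclear receptor, by 1.01, Vdr, the vitamin D receptor, by 0.96, and Cebpd, an acute-phase transcription factor, by 0.80. The other genes of the 20 with the largest rises were Limch1 (0.93), Plcxd2 (0.92), Abca8b (0.88), Tmem170 (0.82) and Rassf2 (0.81). Naip2 and Abca8b lost their calls without either siJunb library.

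Among the genes that fell most, Actc1, cardiac alpha-actin, was at 22.2 and 19.7 CPM with siControl, 3.79 and 4.02 CPM with siJunb and 18.4 and 20.01 CPM with siH1f0, a log2 change of -2.43 ± 0.10 (SE; adjusted p = 7.86e-06). Rxfp1, the relaxin receptor, was at 7.91 and 8.94 CPM with siControl against 2.14 and 1.70 CPM with siJunb and fell by 2.12. Myl7, the atrial myosin regulatory light chain, was at 16.2 and 13.5 CPM with siControl against 4.89 and 4.75 CPM with siJunb and fell by 1.63. For all of these the siJunb libraries were the lowest of the 6.

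Nrap, an actin-binding protein of growing myofibrils, was also among the 20 largest falls (-1.30). Tnfrsf19, a receptor of the TNF receptor family, was at 50.9 and 50.3 CPM with siControl, 18.0 and 18.1 CPM with siJunb and 80.99 and 74.6 CPM with siH1f0, so it was lower in siJunb and higher in siH1f0 than in siControl. A further set serves basic functions of most cells and was expressed at moderate to high levels. Rpl4, a protein of the large ribosomal subunit, was at 971 and 921 CPM with siControl, 476 and 476 CPM with siJunb and 878 and 884 CPM with siH1f0, and fell by 0.99 (adjusted p = 1.24e-05). Dstn, the actin-severing protein destrin, was at 295 and 289 CPM with siControl against 134 and 138 CPM with siJunb and fell by 1.10. Golga7, an accessory protein of a palmitoyltransferase, fell by 1.30, from 114 to 46.1 CPM.

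Xrcc5, the Ku80 subunit that binds broken DNA ends, fell from 37.96 to 13.9 CPM (log2 -1.45), and Srp68, a subunit of the signal recognition particle, fell from 101 to 49.6 CPM (-1.02). Ypel5, a subunit of a ubiquitin ligase complex, fell from 102 to 48.7 CPM (-1.06). The siH1f0 means of these genes were 40.1, 104 and 104 CPM, close to siControl, as the plot of the largest changes by library shows. Uqcc3, an assembly factor of respiratory complex III, fell by 1.08, Tmem2, a cell-surface hyaluronidase, by 1.09, and Avil, an actin-binding protein of the gelsolin family, by 1.06. Sertad4 changed by -1.10 and Cdsn, corneodesmosin, by -1.56. The catalytic RNAs of RNase P and RNase MRP, Rpph1 and Rmrp, were also called, and their siControl values lay far apart. Rpph1 was at 15.7 and 3.95 CPM with siControl against 3.07 and 2.24 CPM with siJunb and Rmrp at 26.04 and 6.65 CPM with siControl against 5.80 and 3.35 CPM with siJunb, and without siControl 1 their changes shrank to -0.56 and -0.51. Neither was called when a siJunb or a siH1f0 library was left out.

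**Figure D2:**
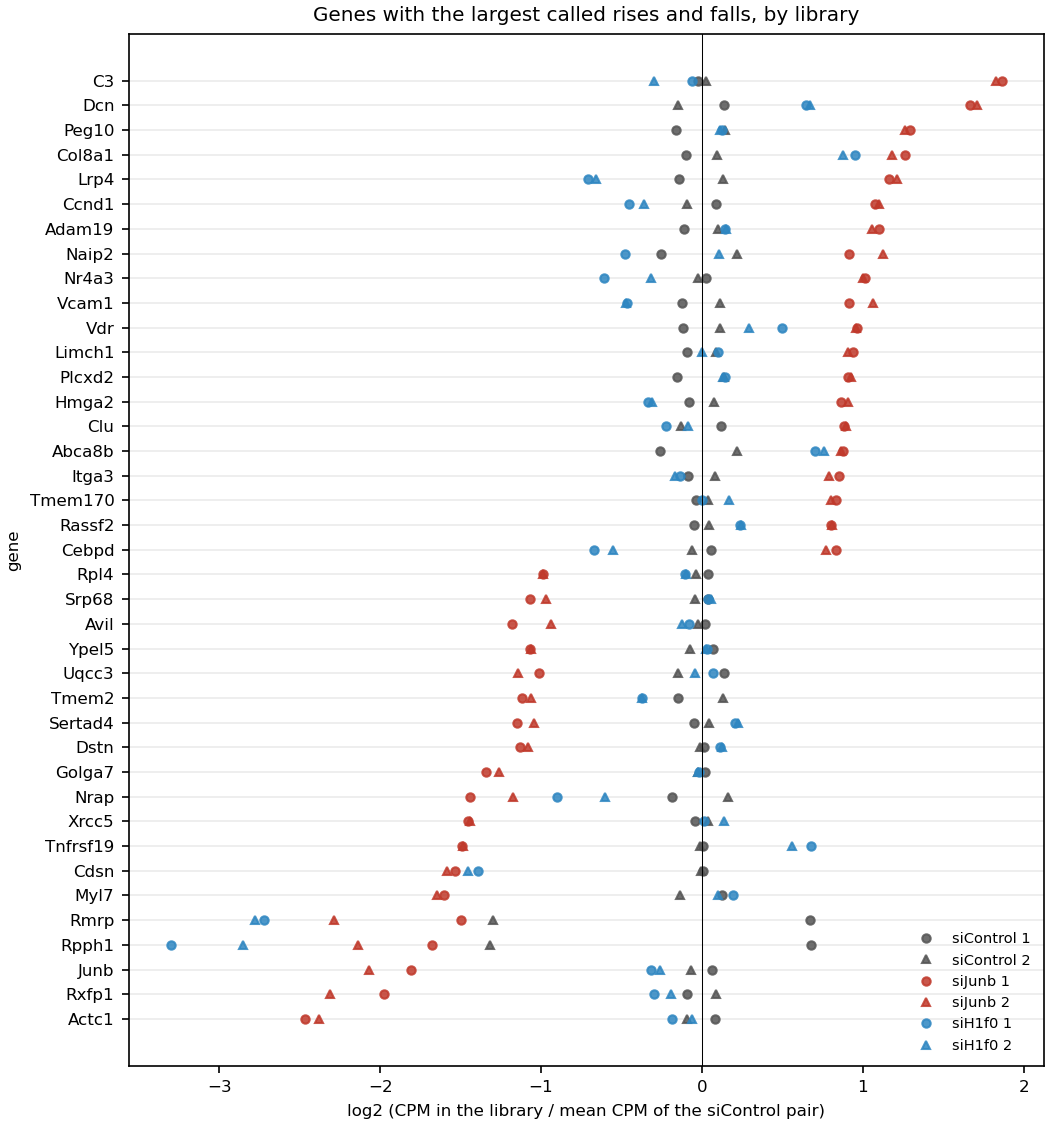
For genes with the largest called rises and falls, points give log2 of the CPM in each library over the mean of the siControl pair (x axis), with circles for replicate 1 and triangles for replicate 2. The siJunb pair (red) lies to the right of siControl (grey) for the upper genes and to the left for the lower genes, and Rpph1 and Rmrp show a wide siControl pair.

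The siH1f0 libraries gave a second reference that had also received a targeting siRNA. Between siJunb and siH1f0, 3484 genes (25.9%) were called, and of the 40 genes with the largest rises and falls 36 were among them, each in the same direction as against siControl. The exceptions were Abca8b (0.14, adjusted p = 0.521), Cdsn (-0.14, 0.424), Rpph1 (1.18, 0.224) and Rmrp (0.94, 0.301). The siJunb libraries enter both comparisons, so these values are not independent of the ones above. Measured by the difference in CPM, the genes that gained most included Lamp1, Dag1, Col5a2, Ftl1 and Atp5b, and those that lost most were Nid2, Rpl4, Malat1, Pabpc1, Tubb5 and H3f3b. Lamp1, a main glycoprotein of the lysosome membrane, was at 2796 and 2616 CPM with siControl against 3625 and 3603 CPM with siJunb. Nid2, the basement membrane linker nidogen-2, was at 1670.0 and 1901 CPM with siControl against 1134 and 1136 CPM with siJunb. Both pairs were well apart. Dag1, the matrix receptor dystroglycan, rose by 0.51, while the nuclear RNA Malat1 fell by 0.46 and was lower still in siH1f0.

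Cardiac contractile and calcium genes leaned downward. Of 42 that passed the filter, 13 fell and 4 rose, and the median log2 change was -0.31 against 0.0024 for all tested genes. None of the rises and 7 of the falls held in all 6 fits. Without siJunb 1 or siJunb 2 the list had 8 and 9 lower members and 0 higher. Beyond Actc1 and Myl7, Casq2, the calcium store protein calsequestrin, was at 52.4 and 51.8 CPM with siControl against 29.8 and 30.2 CPM with siJunb and fell by 0.80 (adjusted p = 9.28e-05). Myom2, an M-band protein and the most abundant member that fell, was at 355 and 349.8 CPM with siControl against 247 and 244 CPM with siJunb, a change of -0.52. Cox6a2, the heart and muscle form of a cytochrome c oxidase subunit, fell from 54.5 to 34.3 CPM, Lmod2, which lengthens thin filaments, from 14.2 to 8.57 CPM, and Tnni3, cardiac troponin I, from 5.37 to 2.83 CPM. Xirp2, an actin-binding protein of intercalated discs, fell by 0.47. The rises were Kcnj2 (0.34), Nppb (1.01), Mybpc3 (0.41) and Mb (0.59). The most abundant members showed little difference: Tpm1, Atp2a2, Ankrd1 and Tnnt2 differed by 0.11, 0.06, -0.07 and 0.02 and did not pass the test. With a floor of 5 CPM the median was -0.11, with 12 members lower and 2 higher. Of 15 cardiac transcription factors other than the induced trio, Mef2d and Hopx rose and Tbx3 and Irx3 fell, and 1 of the rises held in all 6 fits.

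The start sites of the most reduced cardiac genes are shown because both carry the same kind of element, the CArG box, which the muscle regulator SRF is known to bind. Each window below runs from 250 bases before to 50 bases after a RefSeq start (GRCm38.p6), read 5′ to 3′ on the strand of the gene, with the CArG box in capitals. The windows are chr2:114052826-114053125 (minus strand) for Actc1 and chr11:5898733-5899032 (minus strand) for Myl7.
Actc1: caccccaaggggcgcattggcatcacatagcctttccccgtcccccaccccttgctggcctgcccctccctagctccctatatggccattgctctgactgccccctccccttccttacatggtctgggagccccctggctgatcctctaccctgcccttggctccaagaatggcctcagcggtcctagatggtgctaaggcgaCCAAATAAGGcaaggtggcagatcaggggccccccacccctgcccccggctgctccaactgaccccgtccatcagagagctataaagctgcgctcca
Myl7: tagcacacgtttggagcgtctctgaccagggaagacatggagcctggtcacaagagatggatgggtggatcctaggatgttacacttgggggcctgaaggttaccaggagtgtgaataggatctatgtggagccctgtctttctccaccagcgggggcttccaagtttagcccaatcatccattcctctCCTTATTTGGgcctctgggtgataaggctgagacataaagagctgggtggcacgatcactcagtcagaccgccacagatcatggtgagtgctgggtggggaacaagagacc
The box begins at base -47 of Actc1 and base -61 of Myl7. Both strands were searched, and 1.34% of 10565 tested genes with such a window hold a CArG box there, against 1.82% of 934 higher and 1.59% of 817 lower genes. MEF2, GATA and T-box elements were also searched in these windows. They were in 0.426%, 6.02% and 10.6% of all windows, in that order. Among higher genes they were in 0.642%, 5.67% and 10.9%, and among lower genes in 0.857%, 4.77% and 8.94%. Of 34 cardiac list members with a window 5 hold a CArG box. They are Actc1, Myl7, Ldb3 and Myom1, which are 4 of the 10 lower members with a window, and Fhl2, which was not called. The set was looked at after the values were seen, and a match says only that the letters are present. Of 29 smooth muscle and SRF target genes 1 rose, Acta2 (0.33), and 2 fell, Cnn3 (-0.30) and Zyx (-0.17), with a median of 0.02, and none held in all 6 fits.

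The AP-1 element itself, TGACTCA on either strand, was found in 3.6% of all windows, in 5.57% of those of higher genes and in 3.55% of those of lower genes. Among genes changed at least 1.5-fold it was in 8 of 89 windows of higher genes (8.99%) and 7 of 175 of lower genes (4%). Of the 40 genes with the largest changes 26 have a window, and 0 of these hold it. The 4 genes changed at least 1.5-fold that hold it and average at least 5 CPM were Dhrs9, a retinol and steroid dehydrogenase, which rose by 0.59, and Fgl2, a fibrinogen-like secreted protein, Apobr, an apolipoprotein B receptor, and Mcu, the mitochondrial calcium uniporter, which fell by 0.60, 0.62 and 0.71. Mcu was at 93.4 and 90.9 CPM with siControl against 55.9 and 56.6 CPM with siJunb. Dhrs9 was at 33.03 and 47.5 CPM with siControl, 61.1 and 60.0 CPM with siJunb and 60.97 and 60.1 CPM with siH1f0, so both knockdown pairs lay above siControl. Their windows are shown with the element in capitals, at chr2:69380212-69380511 (plus strand), chr5:21372423-21372722 (plus), chr7:126584758-126585057 (plus) and chr10:59616643-59616942 (minus), in that order.
Dhrs9: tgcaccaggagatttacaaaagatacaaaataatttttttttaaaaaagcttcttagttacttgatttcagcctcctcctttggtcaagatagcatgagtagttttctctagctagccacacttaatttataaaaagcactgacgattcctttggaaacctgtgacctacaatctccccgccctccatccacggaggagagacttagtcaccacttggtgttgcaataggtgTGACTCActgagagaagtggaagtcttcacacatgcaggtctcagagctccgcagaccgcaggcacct
Fgl2: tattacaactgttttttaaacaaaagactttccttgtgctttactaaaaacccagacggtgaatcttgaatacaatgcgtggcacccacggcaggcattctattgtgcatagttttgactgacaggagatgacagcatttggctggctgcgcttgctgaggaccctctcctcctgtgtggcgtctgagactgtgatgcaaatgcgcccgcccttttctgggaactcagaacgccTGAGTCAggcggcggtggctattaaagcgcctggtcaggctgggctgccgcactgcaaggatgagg
Apobr: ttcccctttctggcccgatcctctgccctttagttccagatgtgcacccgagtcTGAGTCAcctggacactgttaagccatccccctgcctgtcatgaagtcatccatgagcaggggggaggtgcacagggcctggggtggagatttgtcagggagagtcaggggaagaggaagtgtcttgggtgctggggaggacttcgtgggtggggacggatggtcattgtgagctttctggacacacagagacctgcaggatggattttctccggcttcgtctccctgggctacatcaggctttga
Mcu: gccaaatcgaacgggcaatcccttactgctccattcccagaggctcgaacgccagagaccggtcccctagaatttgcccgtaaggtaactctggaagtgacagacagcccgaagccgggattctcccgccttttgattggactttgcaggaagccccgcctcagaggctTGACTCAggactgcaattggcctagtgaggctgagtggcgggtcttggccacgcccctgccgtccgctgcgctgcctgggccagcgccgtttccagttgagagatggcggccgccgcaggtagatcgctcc
The element begins at bases -18, -16, -196 and -81. The cyclic AMP element TGACGTCA, which some JUN and ATF dimers bind, was in 3.3% of all windows, 3% of those of higher and 2.57% of those of lower genes. Enhancers, where AP-1 is known to act, lie outside these windows.

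Genes of the lysosome, the acid compartment that breaks down proteins, lipids and glycans, were called mostly higher, by small changes. Of 67 that passed the filter, 24 rose and 2 fell, with a median of 0.14, and 41 were not called. Of the calls, 4 and 1 held in all 6 fits, and without either siJunb library 5 rose and 1 fell. Summed over the list, expression was 19054.6 and 18395 CPM with siControl, 21729 and 21617 CPM with siJunb and 18104 and 18127 CPM with siH1f0. The siJunb sums were above the other 4. Gla, the alpha-galactosidase that clears globotriaosylceramide, was at 33.02 and 30.8 CPM with siControl, 50.5 and 49.4 CPM with siJunb and 14.6 and 15.4 CPM with siH1f0, and rose by 0.65 ± 0.06 (adjusted p = 5.12e-04). Neu1, the lysosomal sialidase, was at 68.98 and 63.2 CPM with siControl against 92.7 and 90.8 CPM with siJunb, and its partner Ctsa at 534 and 507 CPM with siControl against 657 and 655 CPM with siJunb. The groups did not overlap for any of these genes, as was the case for 58% of all tested genes.

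Hydrolases called higher also included Asah1, acid ceramidase (0.34), Gaa, the glycogen-digesting glucosidase (0.35), Tpp1, a peptidase (0.32), and the cathepsins Ctsd (0.35) and Ctsb (0.20). Subunits of the proton pump that acidifies the compartment moved with them: Atp6v0d1 (0.36), Atp6v0a1 (0.32), Atp6v1a (0.33), Atp6v1b2 (0.24), Atp6v1e1 (0.21) and Atp6v1f (0.23) rose and Atp6v1d fell (-0.24). Lamp2, a membrane glycoprotein, Mcoln1, a calcium channel, and Tfe3, a transcription factor of the family that drives lysosome genes, rose by 0.22, 0.24 and 0.22. Man2b1, the lysosomal alpha-mannosidase, went the other way, at 128 and 125 CPM with siControl against 93.97 and 93.8 CPM with siJunb (-0.43). Of 38 autophagy genes 6 rose and 3 fell (median 0.07), among them the cargo receptor Sqstm1 (0.22) and Map1lc3a (-0.42), and none of the 9 held in all 6 fits.

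**Figure D3:**
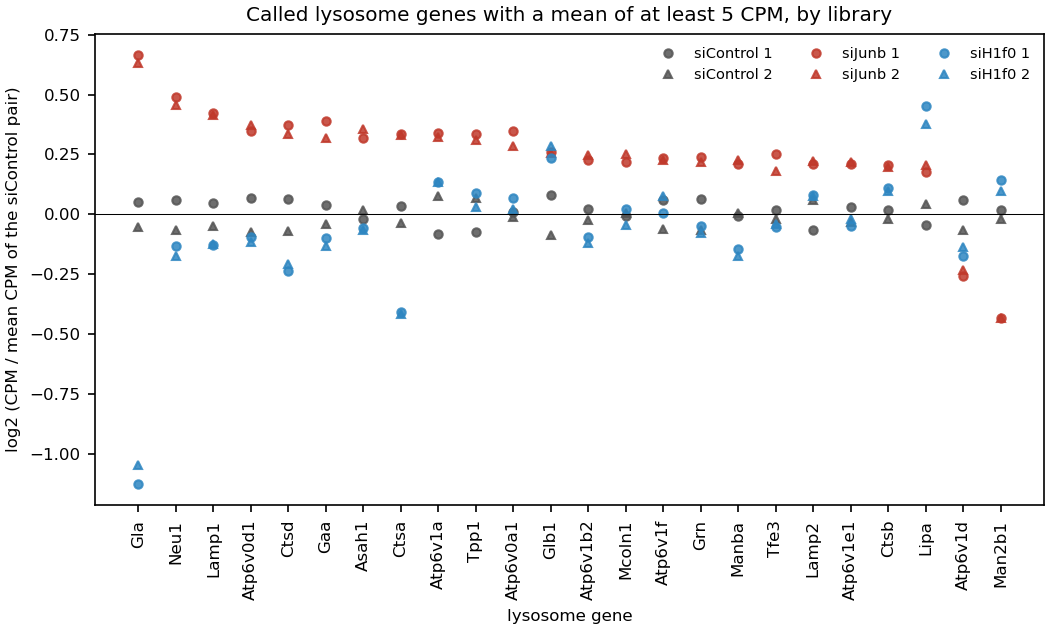
Points give log2 of the CPM in each library over the mean of the siControl pair (y axis) for called lysosome genes with a mean of at least 5 CPM (x axis). The siJunb pair (red) lies above siControl for all but Man2b1 and Atp6v1d, and the siH1f0 pair (blue) lies below siControl for Gla.

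Iron and trace metal handling showed a similar lean. Of 20 genes for metallothioneins, iron and zinc, 7 rose and 1 fell, with a median of 0.12, and without either siJunb library 3 rose. The rises that held in all 6 fits also numbered 3. Tfrc, the transferrin receptor that brings iron into the cell, was at 91.4 and 107 CPM with siControl, 169 and 166 CPM with siJunb and 65.6 and 63.8 CPM with siH1f0. It rose by 0.76 ± 0.07 (adjusted p = 5.12e-04). Mt2, a metal-binding metallothionein, was at 55.5 and 47.9 CPM with siControl against 77.9 and 75.05 CPM with siJunb. Slc11a2, the carrier that moves iron out of endosomes, rose by 0.36, Ftl1, the ferritin light chain that stores iron, by 0.30, and the zinc and iron importers Slc39a14 and Slc39a8 by 0.30 and 0.28. Slc40a1, the iron exporter ferroportin, fell by 0.55, at 4.10 and 4.33 CPM with siControl against 2.88 and 2.87 CPM with siJunb.

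Solute carriers as a whole had 34 of 198 higher and 10 lower, with a median of 0.07. With only the siControl and siJunb libraries in the fit these were 12 and 8. Without siJunb 1 there were 6 higher and 2 lower, without siJunb 2 there were 4 and 3, and 4 and 2 held in all 6 fits. Slc16a1, the lactate and pyruvate carrier MCT1, was at 121 and 125 CPM with siControl against 183 and 182 CPM with siJunb and rose by 0.57 ± 0.05. The copper importer Slc31a1 rose by 0.39 and the arginine carrier Slc7a2 by 0.42. The bicarbonate exchanger Slc4a3 and the sugar carrier Slc45a4 fell by 0.43 and 0.48.

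In glycolysis 5 of 22 genes rose and 1 fell (median 0.12): Aldoa (0.43), Pgam1 (0.39), Ldha (0.28), Pkm (0.20) and Pfkp (0.22) against Pfkl (-0.26). Without siJunb 1 or siJunb 2 there were 2 and 1 higher and 0 lower, and 1 rise held in all 6 fits. In the citric acid cycle and the pyruvate dehydrogenase complex that feeds it, 8 of 24 rose and 1 fell (median 0.06). Pdha1, Pdhb, Dld and Dlat, which are parts of that complex, rose by 0.40, 0.20, 0.20 and 0.19, and Idh2, the mitochondrial NADP-linked isocitrate dehydrogenase, fell by 0.34. In this list 1 member, Pdha1, held in all 6 fits. Aldoa was at 489.9 and 456 CPM with siControl against 638 and 636 CPM with siJunb and Pdha1 at 187 and 195 CPM with siControl against 252 and 252 CPM with siJunb. Of 81 oxidative phosphorylation genes 4 rose and 2 fell (median 0.07), the falls being Uqcc3 and Cox6a2, which both held in all 6 fits, as no rise did. Among 41 genes of glutathione, thioredoxin and NRF2 7 rose, including G6pdx (0.43) and the regulator Nfe2l2 (0.24). In the same list 1 fell, Taldo1 (-0.39), and 1 of the rises held in all 6 fits. Calls made up 19.5% of this list and 7.41% of the oxidative phosphorylation list, against 16.5% of all tested genes. Of 39 sterol and fatty acid synthesis genes 4 rose and 8 fell, with Insig1 (-0.46) and Srebf1 (-0.23) among the falls, of which 1 held in all 6 fits while no rise did.

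Cytokine signalling through STAT3 had 6 of 18 members higher and 0 lower, with a median of 0.11. At 3 of these the call was kept in all 6 fits. They were Cebpd, at 84.1 and 77.6 CPM with siControl, 144 and 138 CPM with siJunb and 50.8 and 55.1 CPM with siH1f0, Osmr, the oncostatin M receptor, at 43.5 and 50.8 CPM with siControl, 74.5 and 73.2 CPM with siJunb and 52.5 and 48.0 CPM with siH1f0, and Socs3, the feedback inhibitor of the pathway, at 33.8 and 34.5 CPM with siControl against 50.5 and 47.01 CPM with siJunb. Cebpd was highest in siJunb and lowest in siH1f0. Stat3 itself, the kinase gene Jak1 and the ligand gene Lif rose by 0.30, 0.35 and 0.37. Of 16 chemokine and cytokine genes 4 rose and 1 fell, and 2 of the rises held in all 6 fits. Csf1, the growth factor of macrophages, was at 357 and 366 CPM with siControl against 507 and 495 CPM with siJunb, Ccl7 rose by 0.88, Cxcl1 by 0.67 and Cx3cl1 by 0.47, while Tslp fell by 0.75.

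In complement 3 of 13 rose and 2 fell, and the 3 rises held in all 6 fits. Beside C3 and Clu, Masp1, a protease of the lectin pathway, was at 31.5 and 42.03 CPM with siControl against 64.7 and 62.6 CPM with siJunb, and the falls were C4a (-0.80) and C1s1 (-0.28). Of 23 serpins, inhibitors of serine proteases, 6 rose and 3 fell, of which 3 and 1 held in all 6 fits. Serpinb9b, at 35.6 and 35.1 CPM with siControl against 60.1 and 57.7 CPM with siJunb, and the acute-phase gene Serpina3h, at 99.5 and 92.4 CPM with siControl against 131 and 134 CPM with siJunb, rose, and Serpinf1, which encodes the anti-angiogenic factor PEDF, fell from 44.2 to 29.2 CPM. Copies of the Serpina3 cluster resemble each other closely, so reads may be split among them. Of 17 NF-kB subunits and inhibitors 5 rose and 0 fell, all by 0.19 to 0.33. Without siJunb 1 or siJunb 2 none was called, and with only the 4 siControl and siJunb libraries 1 was. Of 19 genes for MHC class I and antigen processing 6 rose and 0 fell (median 0.20), with B2m at 1241 and 1172 CPM with siControl against 1400.0 and 1483 CPM with siJunb. None of these 6 kept its call without either siJunb library. Among 36 interferon-stimulated genes 7 rose and 1 fell, with a median of 0.08, and 1 rise held in all 6 fits.

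Immediate early genes outside AP-1, which respond to growth signals within minutes, had 7 of 23 higher and 0 lower (median 0.04). Without siJunb 1 or siJunb 2 there were 4 and 3 higher, and 3 held in all 6 fits. Nr4a3 was at 6.71 and 6.48 CPM with siControl against 13.3 and 13.2 CPM with siJunb, its relative Nr4a1 at 31.6 and 29.5 CPM with siControl against 44.99 and 44.2 CPM with siJunb, and Klf2, a Krüppel-like factor, at 37.8 and 32.5 CPM with siControl against 55.2 and 49.9 CPM with siJunb. These and the antiproliferative gene Btg2 (0.37), the RNA-decay factor gene Zfp36 (0.42), Klf10 (0.24) and Klf4 (0.20) make up the rises. MAPK feedback inhibitors were mixed, with 2 of 18 higher and 3 lower: Dusp5 rose by 0.59 and Dusp1 fell by 0.47, and 1 fall held in all 6 fits.

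**Figure D4:**
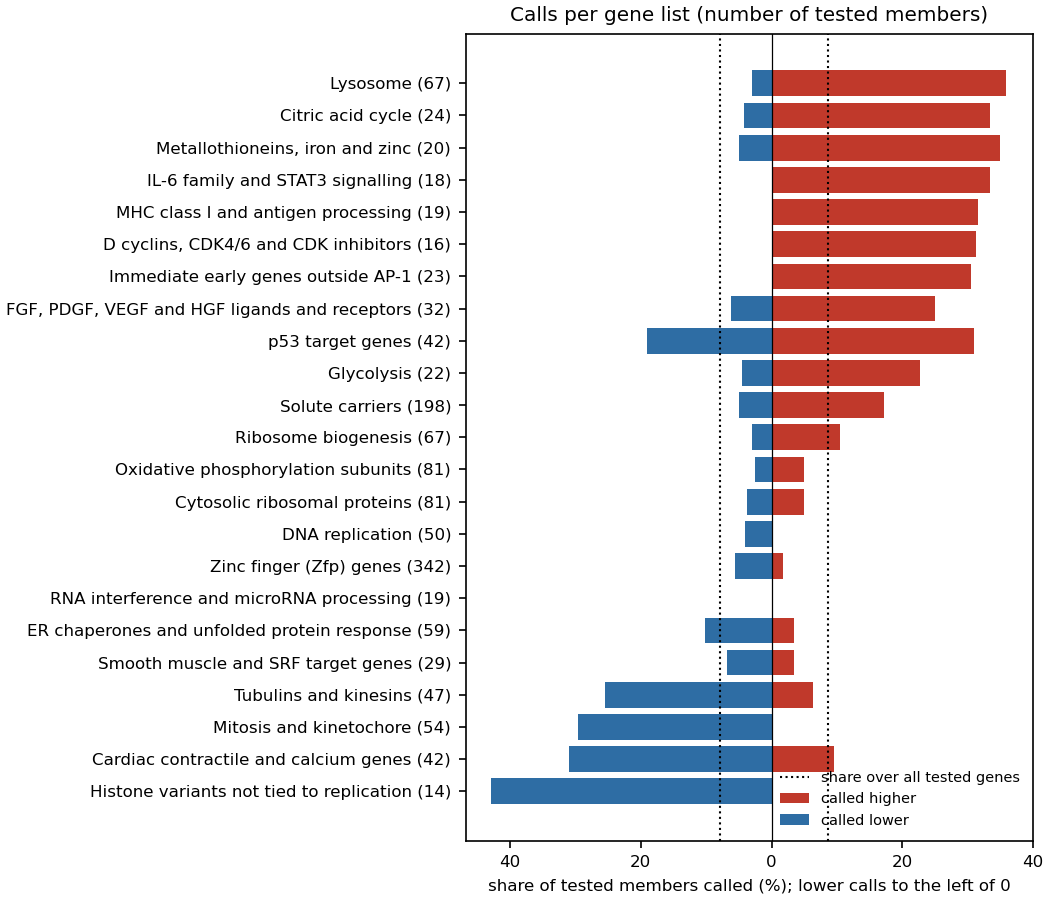
Bars give the share of each list's tested members that edgeR called higher (red, to the right) or lower (blue, to the left) in siJunb, with the number of tested members in brackets, and dotted lines mark the shares over all tested genes, 8.63% and 7.82%. Lysosome and metal genes reach furthest right, histone variant, cardiac and mitosis genes furthest left, and no RNA interference gene was called.

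Called mitosis genes were lower and called D cyclin genes higher. Of 54 mitosis and kinetochore genes 16 fell and 0 rose, with a median of -0.13, and without siJunb 1 or siJunb 2 there were 4 and 3, and 3 held in all 6 fits. Ncapd2, a condensin subunit that compacts chromosomes, was at 147 and 135 CPM with siControl against 105 and 104 CPM with siJunb (-0.44), Bub3, a spindle checkpoint protein, at 112 and 104 CPM with siControl against 82.5 and 79.1 CPM with siJunb (-0.42), and Fam64a at 30.8 and 29.1 CPM with siControl against 21.8 and 21.7 CPM with siJunb (-0.46). The mitotic kinase gene Melk fell by 0.49, and Foxm1, the transcription factor of this programme, by 0.35. Replication genes had 2 of 50 lower and 0 higher (median -0.06), and neither held in all 6 fits. Of 16 genes for D cyclins, CDK4/6 and CDK inhibitors 5 rose and 0 fell, namely Ccnd1, Ccnd2 (0.52, at 234 and 277 CPM with siControl against 367 and 366 CPM with siJunb), Ccnd3 (0.29), Cdk6 (0.36) and the inhibitor gene Cdkn1b (0.20). Without either siJunb library 2 of these calls were kept. The inhibitor genes Cdkn1a and Cdkn2a differed by 0.08 and -0.07 and did not pass the test.

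Genes of DNA repair by homologous recombination and the Fanconi pathway had 5 of 38 lower and 0 higher (median -0.10), and 1 held in all 6 fits. These falls made up 13.2% of the list, where 16.5% of all tested genes were called and 7.82% were called lower. Exo1, a nuclease that resects DNA ends, was at 22.8 and 23.2 CPM with siControl against 15.8 and 14.3 CPM with siJunb and fell by 0.60, and Bard1, the partner of BRCA1, fell by 0.39. Of 42 p53 target genes 13 rose and 8 fell, with a median of 0.16, and without siJunb 1 or siJunb 2 there were 4 and 4 higher and 1 and 0 lower, and 2 rises held in all 6 fits. Ccng1, a cyclin that regulates MDM2, was at 127 and 139 CPM with siControl against 203 and 194 CPM with siJunb (0.58), and Zmat3 and the death receptor genes Fas and Tnfrsf10b rose by 0.47, 0.51 and 0.40. Plk2, Mdm4 and Ccng2 fell by 0.34, 0.40 and 0.40. Tubulins and kinesins had 12 of 47 lower and 3 higher (median -0.07), including Tube1 (-0.57), Kif3c (-0.49), Kif3a (-0.34), Tuba1a (-0.28) and the neuron-associated tubulin gene Tubb3 (-0.56), and 1 was still called lower without either siJunb library.

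Several lists of chromatin genes had more lower than higher calls. Of 14 histone variants not tied to replication 6 fell and 0 rose (median -0.20): H2afv (-0.34), H1fx (-0.48), H2afx (-0.30), H1f0 (-0.23), H2afy2 (-0.25) and H3f3b (-0.18). None kept its call without either siJunb library. Of 39 replication-dependent histone genes, whose mRNAs mostly lack a poly(A) tail, 7 fell and 0 rose, 1 of them in all 6 fits. Their median was -1.07, and it was -0.56 without siControl 1 and -1.69 without siControl 2. Most were scarce, with a median of 0.294 CPM over the siControl and siJunb libraries. With a floor of 5 CPM the median change was -0.67, with 1 member lower. All listed members summed to 82.4 and 66.6 CPM with siControl, 47.6 and 46.6 CPM with siJunb and 38.8 and 38.9 CPM with siH1f0, so both knockdown pairs lay below siControl. The part of poly(A) selection in these falls and in those of the histone variants was not tested. Of 27 BAF remodelling subunits 3 fell and 0 rose, and 1 fall held in all 6 fits. These falls made up 11.1% of the list, where 16.5% of all tested genes were called and 7.82% were called lower. Bcl7a was at 69.7 and 70.1 CPM with siControl against 40.9 and 38.9 CPM with siJunb, with groups far apart, and changed by -0.81 ± 0.05 (adjusted p = 9.28e-05), and the ATPase gene Smarca2 and Dpf1 fell by 0.37 and 0.48. Among 13 HMG and IGF2BP genes 2 rose, Hmga2 and Igf2bp2 (0.26), and 5 fell, led by Hmgb3 (-0.57) and Hmgb1 (-0.40), and 1 rise and 1 fall held in all 6 fits. Hmgb3 was at 80.3 and 76.4 CPM with siControl against 52.3 and 53.5 CPM with siJunb. Of 36 Polycomb genes 3 rose and 3 fell, and the large family of Zfp zinc finger genes had 6 of 342 higher and 19 lower. These are 16.7% and 7.31% called, against 16.5% of all tested genes. None of 19 genes of RNA interference was called, with a median of -0.04. Of 20 circadian clock genes 4 fell and 0 rose, namely Ciart (-0.56), Dbp (-0.64), Per3 (-0.42) and Nr1d1 (-0.23). Of 26 Hox genes 2 rose, Hoxc8 (0.30) and Hoxb4 (0.34). No call on a Polycomb, Zfp, clock or Hox gene held in all 6 fits.

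Matrix genes moved in both directions. Of 33 collagen chains 6 rose and 2 fell (median -0.10), and 1 of each held in all 6 fits. The rises covered the basement membrane chains Col4a1 (0.29) and Col4a2 (0.36, at 748 and 816 CPM with siControl against 1018 and 993 CPM with siJunb), the fibril regulators Col5a1 (0.18) and Col5a2 (0.28), Col6a3 (1.04) and Col8a1, and the falls were Col10a1 (-0.97) and Col11a2 (-0.54). Col1a1 and Col1a2 differed by -0.10 and -0.05, which did not pass the test. The nidogens, which link laminin to type IV collagen, moved apart: Nid1 was at 168 and 225 CPM with siControl against 312 and 314 CPM with siJunb and Nid2 at 1670.0 and 1901 CPM with siControl against 1134 and 1136 CPM with siJunb. In the basement membrane list 4 of 18 rose and 2 fell, with Pxdn (0.34) and Lama5 (0.28) higher and Lama2 (-0.50) lower, and 1 fall held in all 6 fits. All 3 called small leucine-rich proteoglycans of 7 rose: Dcn, Bgn (0.37) and Podn (0.71), 2 of them in all 6 fits.

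Elastic fibre genes had 3 of 19 higher and 6 lower, and 1 rise held in all 6 fits. Ltbp2 (0.64), Lox (0.32) and Fbln2 (0.20) rose, while the crosslinkers Loxl1 (-0.41) and Loxl3 (-0.31), Mfap2 (-0.62) and Fbln1 (-0.72) fell with Ltbp3 and Ltbp4. Thbs2, a matrix glycoprotein that restrains vessel growth, was at 44.2 and 48.4 CPM with siControl against 29.7 and 27.8 CPM with siJunb and fell by 0.69. Among 44 metalloproteinases, ADAM proteases and TIMPs 3 rose and 6 fell, with Adam9 (0.48) beside Adam19 among the rises and Mmp11 (-0.30) and Mmp15 (-0.28) among the falls. In this list 2 rises held in all 6 fits. Hyaluronan and heparan sulfate genes had 4 of 34 higher and 8 lower, with the synthase gene Has3 (-1.30), Sdc3 (-0.34) and Glce (-0.34) lower and the sulfatase gene Sulf2 (0.47) higher, and 1 fall held in all 6 fits. Of 45 cadherins and protocadherins 6 fell and 1 rose (median -0.33), 4 of the falls being neighbouring Pcdhb genes. Calls made up 15.6% of this list, against 16.5% of all tested genes. Its median expression was 1.56 CPM, and the lowest of the 3 CPM classes had a median change of -0.13. With a floor of 5 CPM the median change of the list was -0.30, with 5 members lower and 0 higher. Without either siJunb library 1 of the falls was still called. Pcdhb17 was at 19.9 and 19.3 CPM with siControl against 12.9 and 13.3 CPM with siJunb. These genes resemble each other closely, so their counts are uncertain.

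Ligands and receptors of growth factor pathways changed in both directions. In a list of FGF, PDGF, VEGF and HGF genes, which also holds Kitl and Axl of other growth factor families, 8 of 32 rose and 2 fell (median 0.13). None held in all 6 fits, and without siJunb 1 or siJunb 2 there were 2 and 0 higher. Pdgfc (0.36), Fgf7 (0.36), Fgf18 (1.08) and Kitl (0.35) were the ligand genes that rose, and Axl, Fgfr2, Met and Pdgfra the receptor genes (0.29, 0.28, 0.29 and 0.27). Vegfa, the vessel growth factor, was at 262 and 271 CPM with siControl against 211 and 209 CPM with siJunb and fell by 0.34. Egfr rose by 0.50 while its ligand gene Hbegf fell from 57.7 to 36.9 CPM (-0.64). In the Wnt pathway 2 of 34 rose and 3 fell, so 14.7% were called, below the 16.5% of all tested genes. Its secreted antagonists Wif1 and Sfrp1 moved apart. Wif1 was at 5.55 and 5.33 CPM with siControl against 1.53 and 1.32 CPM with siJunb and changed by -1.92 ± 0.14 (adjusted p = 1.28e-04), whereas Sfrp1 was at 61.9 and 73.1 CPM with siControl against 108 and 109 CPM with siJunb and rose by 0.68. The other members that changed were Lrp4, Wnt5a (-0.51) and the target gene Axin2 (-0.22). In this list 2 rises and 1 fall held in all 6 fits.

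Of 13 Hedgehog genes 3 fell and 0 rose: the co-receptor gene Gas1 (-0.44), the transducer gene Smo (-0.27) and Gli2 (-0.35), 1 of them in all 6 fits. BMP and activin genes had 4 of 27 higher, with Bmp4 at 6.32 and 7.03 CPM with siControl against 10.96 and 10.8 CPM with siJunb (0.71), and 4 lower, with the BMP antagonist gene Chrd (-0.69). In the TGF-beta list 4 of 21 rose and 4 fell. Of these, 1 BMP and activin rise and 2 TGF-beta rises held in all 6 fits. Tgfb2 rose by 0.27 while Tgfb1 fell by 0.20. Of 26 YAP and TEAD target genes 6 rose and 2 fell (median 0.16), with Cyr61 at 0.16, and none held in all 6 fits. Guidance genes had 7 of 50 higher and 6 lower, and 1 rise held. The Slit ligand genes Slit2 and Slit3 rose by 0.48 and 0.58, and Sema6c and Sema5a fell by 0.87 and 0.56.

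Protein synthesis and secretion held a few sharp falls within groups that otherwise moved little. Of 81 cytosolic ribosomal protein genes 4 rose and 3 fell, with a median of 0.02, and Rpl4 stood far from the rest of its group, which ranged up to 0.35. The next lowest called was Rpl22l1 (-0.68). In the endoplasmic reticulum list 6 of 59 fell and 2 rose. Calls made up 13.6% of this list and 8.64% of the ribosomal protein list, against 16.5% of all tested genes. In each of these lists 2 falls and no rise held in all 6 fits. Rpn1 was at 208 and 201 CPM with siControl against 139 and 149 CPM with siJunb and Ddost at 273 and 258 CPM with siControl against 199.9 and 196 CPM with siJunb. Both are subunits of the complex that attaches N-glycans, and they fell by 0.50 and 0.42. Ssr2, which serves the same translocation site as Srp68's particle, fell by 0.26. Ribosome biogenesis factors had 7 of 67 higher and 2 lower (median 0.07), and mitochondrial ribosomal proteins 3 of 78 higher and 6 lower (median 0.03), none of them in all 6 fits.

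Markers of some other cell types were scarce, and those of others were not. Endothelial genes had 3 of 14 past the filter, epithelial 1 of 13, skeletal muscle 3 of 18 and cartilage and bone 6 of 15, and none of these was called. Summed CPM over the siControl and siJunb libraries was at most 4.77 for the endothelial, 0.364 for the epithelial and 2.45 for the skeletal muscle list, and 50.3 to 54.8 for the cartilage and bone list, most of it Runx2 and Spp1. Neuronal and Schwann cell genes summed to 19 to 24 CPM, with Tubb3 lower, and adipocyte genes to 28.8 to 31.6 CPM, most of it Lpl, with none called. Of the pluripotency list, Sox2 and Klf4 passed the filter and summed to 87.1 and 92.97 CPM with siControl and 102 and 100.2 CPM with siJunb, most of it Klf4. Pecam1, Cdh5, Epcam, Cdh1, Ptprc, Adgre1, Myod1 and Myog did not pass the filter. Of 8 macrophage and leukocyte genes past the filter 1 rose, Csf1r, at 0.253 and 0.228 CPM with siControl against 0.591 and 0.691 CPM with siJunb. They summed to 16.7 and 12.95 CPM with siControl and 16.6 and 17.1 CPM with siJunb, most of it Cd14, which other cell types also express. Pericyte and mural genes summed to 252 and 269 CPM with siControl and 327 and 313 CPM with siJunb, with Cspg4 (0.42) and Mcam (0.36) higher, and their part in the other results was not tested. Of the 15 fibroblast identity genes 4 rose, Dcn, Pdpn (0.32), Gsn (0.21) and Pdgfra, and 0 fell, and 1 rise held in all 6 fits.

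The calls were not spread evenly over the genome. On chromosome 2, 179 of 1051 tested genes were called higher (17%) and 45 lower (4.28%), against 979 (7.93%) and 1004 (8.14%) of 12339 genes elsewhere. The median log2 change there was 0.07. The shift was small but ran along the chromosome: 17 of 19 stretches of 10 Mb held more higher than lower calls, and all 19 medians were above 0, from 0.01 to 0.12. Its genes took 7.74% and 7.82% of the counts of tested genes in siControl, 8.15% and 8.18% in siJunb, and 7.785% and 7.787% in siH1f0. The siJunb pair was thus apart from the other 4 libraries. Each siJunb library showed the shift, with a median log2 ratio to the siControl mean of 0.062 and 0.067, against -0.008 and 0.003 in siH1f0. Against siH1f0 the chromosome had 240 genes higher and 88 lower in siJunb.

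Among the other chromosomes the highest shares of higher calls were 11.1% on X and 10.5% on chromosome 16, and the lowest were 4.96% on chromosome 17 and 5.44% on chromosome 7. Without siJunb 1 the calls on chromosome 2 were 18 higher and 14 lower and without siJunb 2 20 and 11, while the median was 0.07 in both fits. The cause was not tested. The chromosome holds 2 of the 67 tested lysosome genes and 12 of the 54 tested mitosis genes. In the same fit, 23 of the 65 lysosome genes elsewhere rose and 2 fell. Of 42 mitosis genes elsewhere 15 fell. No new fit was made without chromosome 2, so these counts do not test its part in the lists. Chromosome 2 also holds Actc1 and Dstn, which fell against its general direction, and Lrp4 and Rassf2.

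**Figure D5:**
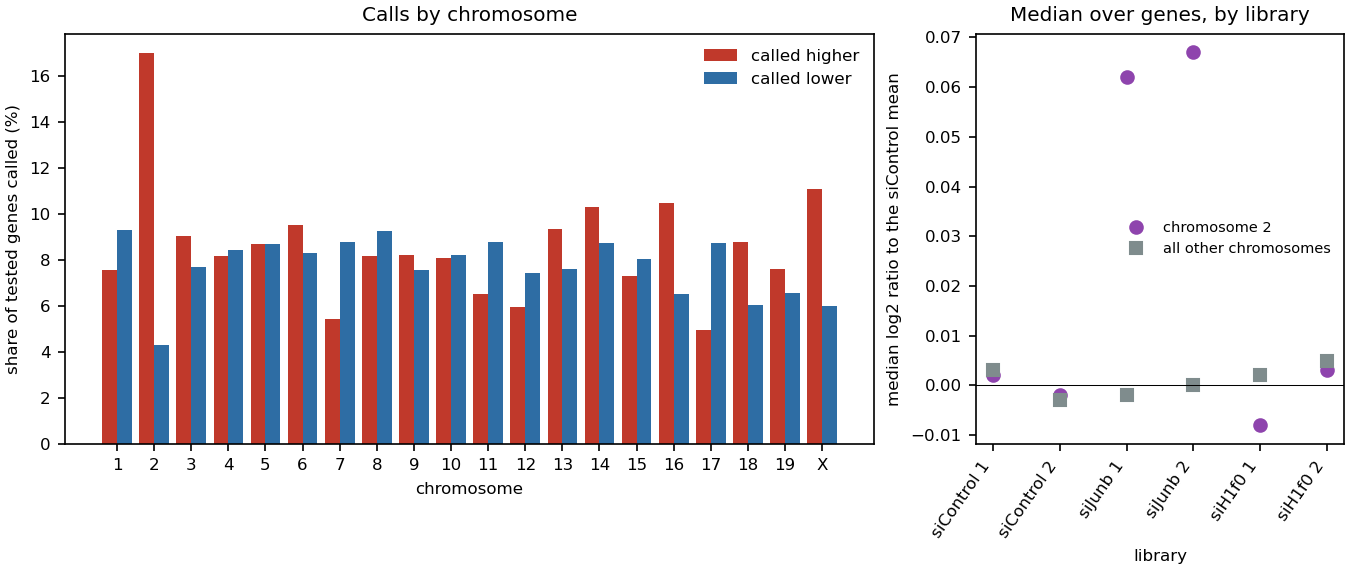
The left panel gives the share of tested genes called higher (red) and lower (blue) on each chromosome (y axis, %), and the right panel the median log2 ratio of each library to the siControl mean for chromosome 2 (circles) and all other chromosomes (squares). Chromosome 2 reaches 17% higher and 4.28% lower calls, and its medians are 0.062 and 0.067 in the siJunb libraries.

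Some neighbouring genes were called in the same direction. There were 25 runs of 3 or more adjacent tested genes called alike, 16 higher and 9 lower. Over all tested genes 8.63% were called higher and 7.82% lower. How many runs these shares alone would give was not tested. A run on chromosome 6 joined Cav2 (0.32), Cav1 (0.53), Met (0.29) and Capza2 (0.21), where Cav1 and Cav2 form the coat of caveolae. Another on chromosome 8 joined Irs2 (0.45), Col4a1, Col4a2, Rab20 (0.59) and an unnamed transcript. Stat3, the caveolar coat gene Ptrf (0.21) and Atp6v0a1 formed a run on chromosome 11. On chromosome 2, where 17% of tested genes were called higher, lay 5 of the runs. Cav1 was at 39.05 and 38.5 CPM with siControl against 54.2 and 57.5 CPM with siJunb.

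Gene types differed as well. Long noncoding RNAs had 5 of 573 higher and 44 lower (median -0.20), which is 0.873% and 7.68% of them, and protein-coding genes 1148 of 12570 higher and 993 lower (median 0.01). The share of lower long noncoding RNAs is near the 7.82% of all tested genes, and the lowest of the 3 CPM classes had a like split, 2.32% higher and 7.04% lower with a median of -0.13. The snoRNAs, which poly(A) selection should mostly remove, had 0 of 66 higher and 2 lower with a median of -0.44, or -0.20 without siControl 1 and -0.72 without siControl 2. Rn45s, Rpph1 and Rmrp, given above, also differed between the siControl libraries, and the part of siControl 1 in these medians beyond those values was not tested.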

How the data were processed

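Poly(A) RNA was sequenced from 2 libraries each of siControl, siJunb and siH1f0. The authors deposited whole-number read counts for each gene symbol, not normalised, with a transcript length column in another unit (bases). Per the submitters' processing notes, HISAT2, Subread, featureCounts and mm10 were used. No source used here gives versions, annotation or strand setting. Without strand, overlapping genes cannot be separated.

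From the counts, filterByExpr, TMM scaling and the quasi-likelihood F test of edgeR 4.0.16 (R 4.3.3) were run on the 6 libraries together, modelled by group alone (3 residual degrees of freedom). Calls needed an adjusted p (Benjamini-Hochberg) under 0.05. Before adjustment 4263 genes were under 0.05. With 2 libraries against 2 the smallest exact permutation p is 0.333 (two-sided), so calls rest on a spread shared across genes, and p-values measure the spread between these libraries. Totals of 48690447 to 85979630 counts set the depth. CPM are counts scaled to a TMM-adjusted library of 1e+06, and "rise" and "fall" refer to calls. Errors are SEs of log2 changes, taken as the absolute change over the square root of its F statistic. The procedure was tested on simulated data.

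Junb, the 90 gene lists and all other members were chosen with earlier results of these data known. Genes were named by rule: Junb and called AP-1 genes, the 20 largest rises and falls with a mean of at least 5 CPM and no overlap between groups (uninformative symbols left out), the 6 largest CPM gains and losses, up to 5 called genes per list by p, and members of runs. Further list members were named after their values were seen. Some genes that the rule would name are not reported here. Coordinates and promoter windows are from RefSeq (GRCm38.p6), where 24402 of 24516 symbols were found. Some 10565 tested genes have a window, and the first listed was used. Alternatives were RLE or total-count scaling, no filter or a 5 CPM filter, DESeq2 1.42.0, limma-voom (limma 3.58.1), only 4 libraries, a replicate block and each library left out.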

Additional observations from a re-analysis of the deposited data

How the results depend on the processing

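The 2209 calls became 1094 with only the 4 siControl and siJunb libraries in the fit (522 higher and 572 lower). With no count filter 1650 genes were called lower. Leaving out each library in turn gave 352 to 5521 calls, 163 to 3035 higher and 188 to 2486 lower. Such a fit takes the spread of the lone library from the remaining groups. The calls numbered 2208 with RLE factors, 2253 with total counts, 1989 with a floor of 5 CPM, 2337 with DESeq2 and 2128 with limma-voom. Of the 2209 calls, 1985 were on genes not placed on chromosome 2. That count was chosen after seeing the data and involved no new fit. The labels number the replicates and state no pairing. Deviations of equally numbered libraries correlated at 0.0477 for siControl with siJunb, -0.0412 for siControl with siH1f0 and 0.0627 for siJunb with siH1f0. Such values cannot show whether these libraries were handled in sets. With the number as a replicate block there were 1684 calls (867 higher, 817 lower), 1665 of them among the 2209. Junb kept its call and direction in all settings, with log2 changes from -2.07 to -1.81, and 33 to 38 of the 40 genes with the largest changes were called against siH1f0. Of the 449 named genes, to which these alternatives were applied one by one, direction turned for 4 that were not called with all libraries: Ddx17 (0.018 without siControl 2, against -0.11 without siControl 1, where it was called with edgeR at an adjusted p of 0.00299), Erg (0.0087 with limma-voom, -0.24 to 0.19 over libraries left out, 0.046 without siJunb 2), Mylpf (-0.018 with total counts, -0.064 without siControl 1, -0.14 without siJunb 2, up to 0.18 without siJunb 1) and Trp63 (-1.26 to 0.77 over libraries left out). The cause was not tested. Among the named genes, 133 lost their call with only the 4 siControl and siJunb libraries in the fit and 53 with the replicate block. Most lost it when siJunb 1 or siJunb 2 was left out. Genes under about 1 CPM have few counts, so changes of such genes, among them Csf1r, are the least certain.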
